A study of Mus musculus with 8 samples.

Results

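Lyz1, Mmp7, Itln1, Ang4, Pnliprp2, Clps, Habp2 and Nupr1 are 8 genes that mouse Paneth cells use besides the alpha-defensins: secreted enzymes, a lectin, an enzyme cofactor and a stress regulator. They were taken by name from a gene count table that lists 25239 genes, and all 8 were present and tested. Between epithelium from CD1d-KO and WT mice, the 2 lipid-digestion genes Pnliprp2 and Clps were higher in CD1d-KO. The lysozyme gene Lyz1 was also higher, with a p close to the threshold. Mmp7, whose protease matures alpha-defensins, was not higher. The ratio of Lyz1 to Mmp7 in CD1d-KO was 1.99 times that in WT. That ratio, among 28 between the 8 genes, was chosen after the values were seen and carries no test.

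Paneth cells sit at the base of the small intestinal crypt, between the stem cells, and release granules of antimicrobial proteins into the crypt lumen. Their best known products are the alpha-defensins and lysozyme, and in mice the metalloproteinase encoded by Mmp7 cleaves the alpha-defensin precursors into active peptides. Paneth cells also secrete lectins, ribonucleases and enzymes that act on bacterial membranes, and supply niche signals to the neighbouring stem cells.

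The series addressed how loss of CD1d, the lipid-presenting molecule on which natural killer T (NKT) cells depend for their development, affects intestinal epithelial cells (IECs). Bulk RNA-seq was made from 4 CD1d-KO samples, of genotype CD1d1/2 KO, and 4 WT samples, of genotype C57BL/6Jax, from untreated mice. The study's mice were males and females 7 to 10 weeks old. Crypts of the proximal small intestine were dissociated and 150000 EpCAM+ cells negative for CD45, CD31 and Ter119 were sorted per sample. The samples came from 2 experiments, and the labels tie no sample to an experiment, so the experiment cannot be told apart from the other differences between samples. They give no sex for a sample either, and Y-linked counts stand in for it below. The knockout removes CD1d from every cell of the animal and with it NKT cells, so the loss of either cannot be told apart here. The study also states that its mice were not littermates, which may affect their gut microbiota. It reports altered natural killer cells and intraepithelial T cells in CD1d-KO as well. The part of these in the results was not tested and cannot be told apart from genotype.

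The libraries held 29743061 to 31629435 assigned read pairs in CD1d-KO and 23610266 to 29763051 in WT. Cd1d1 checked the labels: its normalised count was 0 to 7.15 in CD1d-KO and 61.1 to 91.2 in WT. Y-linked genes had counts in CD1d-KO samples 1 and 2 only, apart from 1 count in 1 WT sample. A list of stomach and Brunner gland genes summed to normalised counts of 831 to 1748 in CD1d-KO and 2709 to 17970 in WT, and a leukocyte list to 966 to 1142 against 1221 to 2870. The part of the leukocyte difference in the results was not tested, and that of the other 2 was examined only through the fits with Y-linked counts and with a stomach score given beside the results. Paneth cell transcripts were present in every sample, with 22 of 30 listed alpha-defensin genes carrying counts and their sum lying between 18980 and 54010. This does not check the identity of the sorted population as a whole. In bulk samples, fewer Paneth cells and less RNA per cell cannot be told apart.

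Across all genes, 622 of 15446 tested passed DESeq2's test at an adjusted p (Benjamini-Hochberg) of 0.05, or 4.03%, and 255 of them, or 1.65% of the tested genes, were higher in CD1d-KO. Of the 8 genes, 3 passed, all higher in CD1d-KO. The 4 CD1d-KO and 4 WT values did not overlap for 2 of the 8, Pnliprp2 and Clps, where 9.61% of all tested genes showed no overlap. The median log2 fold change of the 8 genes was 0.352, beside 0.001 over all tested genes. None of the 8 lies on chromosome 3, which carries Cd1d1. Without CD1d-KO sample 2, 4 of the 8 passed, where 323 of all genes passed. That sample was the lowest CD1d-KO sample for all 8 genes, so leaving it out raised each log2 fold change by construction. Among the 6 samples without Y-linked counts, which also lack CD1d-KO sample 2, 4 of the 8 and 372 of all genes passed. These fits are therefore not separate readings. The 8 genes come from the same libraries and largely one cell type, so they are not independent readings of the genotype.

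**Figure D1:**
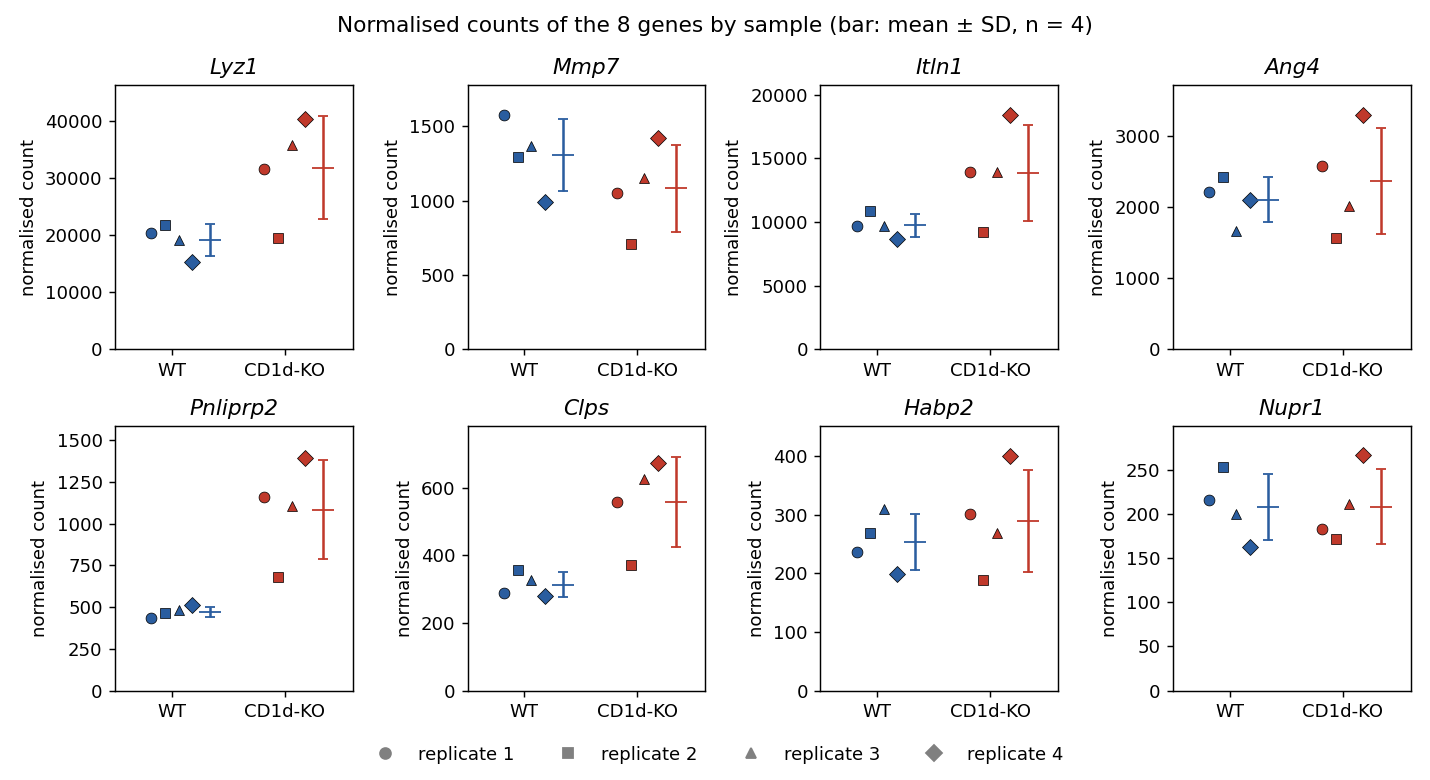
Normalised count (reads divided by the DESeq2 size factor, linear axis from 0) of each of the 8 genes in the 4 WT (blue) and 4 CD1d-KO (red) samples, with the mean and SD beside the points and the replicate number given by the symbol. Pnliprp2 and Clps did not overlap between genotypes, Lyz1 and Itln1 overlapped only through CD1d-KO sample 2, and the other 4 genes overlapped broadly.

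The lipid-digestion genes showed the largest log2 fold changes of the 8. Pnliprp2 encodes pancreatic lipase-related protein 2, a galactolipase and phospholipase, on chromosome 19 (58759723 to 58777534, plus strand; coordinates of the mm10 annotation throughout). In CD1d-KO samples 1 to 4 the normalised counts were 1159, 682, 1103 and 1391, and WT samples 1 to 4 gave 435, 464, 480 and 510. Values of the other genes follow this order of samples. Every CD1d-KO sample lay above every WT sample, and the lowest CD1d-KO value was 1.34 times the highest WT value. The means were 1084 ± 295 (SD, n = 4) and 472 ± 31.3 (SD, n = 4). On the log2 scale CD1d-KO was higher by 1.20 ± 0.17 (SE, adjusted p = 1.07e-09 by DESeq2). Pnliprp2 passed the test under each of 16 other fits (other tests, scalings, filters, covariates and samples left out), with log2 fold changes from 1.06 to 1.64. These 16 leave out a fit with an alpha-defensin score, added after the values were seen and described below. In it Pnliprp2 did not pass (log2 fold change 0.62, DESeq2, adjusted p = 0.116). WT samples spread by only 6.63% of their mean (coefficient of variation), against 27.3% in CD1d-KO.

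Clps encodes colipase, the cofactor that anchors pancreatic lipase to fat droplets in the presence of bile salts, on chromosome 17 (28558210 to 28560766, minus strand). It was counted at 559, 372, 627 and 675 (normalised) in the CD1d-KO samples and at 288, 358, 329 and 279 in the WT samples. The genotypes were again separate, although CD1d-KO sample 2 lay just above WT sample 2. The mean rose from 313 ± 37.1 to 558 ± 133 (SD, n = 4 each), which is 0.83 ± 0.17 on the log2 scale (SE, adjusted p = 0.000105 by DESeq2). The call held under 15 of the 16 other fits and was lost when the stomach score was added as a term (log2 fold change 1.09, adjusted p = 0.0552). That score does not overlap between the genotypes, so such a fit has little information left on genotype, and its intervals are wide. In the fit with the alpha-defensin score, outside the 16, Clps did not pass either (log2 fold change 0.23, DESeq2, adjusted p = 0.726).

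Because both genes are best known from the exocrine pancreas, acinar transcripts were read in the same libraries. Of 10 genes from an exocrine pancreas list, 6 (Cpb1, Prss2, Pnlip, Amy2a5, Try4 and Ctrc) had no count in any sample. The highest count of the other 4 (Cpa1, Ctrb1, Cela2a and Cela3b) in any sample was 4. Cela1, Ctrl and Sycn, from the same list, had 25 to 239 counts per sample. These 13 genes were picked from the 30 listed genes of the pancreas list after their values were seen. Of that list, 13 genes were at 0 in all samples, 11 were tested and 2 passed. One was Pnliprp1, and the other was Dmbt1, a mucosal scavenger receptor that the crypt epithelium expresses at a high level and that fell by 0.56 on the log2 scale (DESeq2, adjusted p = 1.13e-14). The summed level of the list was 152500 to 183100 in CD1d-KO and 203400 to 243200 in WT, most of it Dmbt1.

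Pnliprp1, which encodes a lipase-related protein with little lipase activity and ends 15554 bases before Pnliprp2 starts, was the other tested gene of the same branch of the lipase family. Its level was low, at normalised counts of 33.96, 34.3, 41.1 and 28.8 in the CD1d-KO samples against 11.8, 11.5, 11.6 and 17.1. Here too the genotypes did not overlap, and the difference was 1.42 ± 0.35 on the log2 scale (SE, adjusted p = 0.00316 by DESeq2). Pnlip itself, pancreatic lipase, had no count. Of the remaining lipase list, 8 of 13 genes were tested, 1 rose (Pnliprp1) and 1 fell (Aadac, an esterase of the endoplasmic reticulum; log2 fold change -0.33, adjusted p = 0.0118), with a median of 0.10.

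Fat absorption genes stand next to the lipases in lipid handling. Of 21 fat absorption genes, 2 rose and none fell, with a median log2 fold change of 0.14. Cd36, a fatty acid transporter, rose from a mean normalised count of 287 to 511 (log2 fold change 0.83 ± 0.19, adjusted p = 0.000987). Acsl3, an acyl-CoA synthetase, rose by 0.31 on the log2 scale (DESeq2, adjusted p = 0.0457).

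Lyz1 was the most abundant of the 8 genes. It encodes the intestinal lysozyme, which cuts bacterial peptidoglycan, and lies on chromosome 10 (117287795 to 117292868, minus strand). The CD1d-KO samples had normalised counts of 31580, 19470, 35830 and 40390, and the WT samples of 20460, 21810, 19140 and 15240. CD1d-KO samples 1, 3 and 4 lay above every WT sample, and CD1d-KO sample 2 lay inside the WT range. The mean was 31820 ± 8984 for CD1d-KO and 19160 ± 2832 for WT (SD, n = 4 each). The log2 difference was 0.73 ± 0.23 (SE, adjusted p = 0.0416 by DESeq2).

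This call was close to the threshold and depended on the fit. Lyz1 passed under 6 of the 16 other fits, which include 1 of 8 leave-one-out fits, the one without CD1d-KO sample 2 (log2 fold change 0.91, adjusted p = 6.44e-11). Over the other 7 the adjusted p ran up to 0.162, over log2 fold changes of 0.60 to 0.80. With edgeR's quasi-likelihood test the log2 fold change was 0.73 and the adjusted p 0.0858. With the stomach score as a term it was 0.91 (DESeq2, adjusted p = 0.582), and among the 6 samples without Y-linked counts 0.99 (adjusted p = 5.9e-13). The macrophage lysozyme Lyz2, whose coding sequence is close to that of Lyz1, had normalised counts of 10.5 to 28.6 in all samples, and a read pair that matched both copies was placed at one of them. No other gene of the lysozyme list passed the test (2 of 7 tested, 4 at 0).

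Itln1 encodes intelectin-1, a secreted lectin that binds sugars on microbial surfaces, on chromosome 1 (171518124 to 171535294, minus strand). Normalised counts stood at 13920, 9179, 13950 and 18390 in the CD1d-KO samples against 9671, 10860, 9720 and 8664 in the WT samples. As for Lyz1, CD1d-KO sample 2 lay inside the WT range and the other 3 CD1d-KO samples above it. The log2 fold change was 0.51 ± 0.21 (SE) and did not pass the test (DESeq2, adjusted p = 0.165). Without CD1d-KO sample 2 it was 0.67 (adjusted p = 1.12e-06), and among the samples without Y-linked counts 0.73 (adjusted p = 1.3e-07). In both of these fits, as with Y-linked counts as a term and without WT sample 2, Itln1 passed.

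Other soluble lectins did not share a direction. Of 15 tested, 1 rose and 2 fell, with a median log2 fold change of -0.055. Reg3a rose by 0.83 on the log2 scale (adjusted p = 3.02e-05), Reg3g fell by 1.25 (adjusted p = 7.25e-05) and Reg3b fell by 1.45 (adjusted p = 0.00177), all from the DESeq2 fit. All 3 encode C-type lectins with antibacterial activity, which enterocytes as well as Paneth cells produce.

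Mmp7 encodes matrilysin, the protease that processes mouse alpha-defensin precursors, on chromosome 9 (7692090 to 7699585, plus strand). The normalised counts of the CD1d-KO samples, 1054, 709, 1149 and 1417, compare with 1572, 1293, 1369 and 991 for the WT samples. The genotypes overlapped, with the highest value in WT sample 1 and the lowest in CD1d-KO sample 2. The log2 fold change was -0.27 ± 0.18 (SE; 95% interval -0.63 to 0.08; DESeq2, adjusted p = 0.517). It ran from -0.43 without CD1d-KO sample 4 to -0.12 without CD1d-KO sample 2, and was -0.0262 in the 6 samples that lack Y-linked counts and -0.0215 with the stomach score as a term. It was the only one of the 8 with a negative log2 fold change in this fit, Nupr1 standing at 0.0007 and changing sign with TMM factors (-0.0004). Mmp7 shares 123 exon bases with AV064505, where reads of the 2 genes cannot be told apart.

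Of the other matrix metalloproteinases and their inhibitors, 13 of 21 were tested, 1 rose and 1 fell. Timp3, an inhibitor bound to the matrix, rose from a mean normalised count of 123 to 234 (log2 fold change 0.93, DESeq2, adjusted p = 1.1e-07). Mmp28, an epithelial metalloproteinase, fell by 0.80 on the log2 scale (adjusted p = 1.55e-06).

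The 250 bases before the annotated starts of Mmp7, Lyz1 and Pnliprp2 are shown, from RefSeq on GRCm38.p6, 5′ to 3′ on the gene's strand. Capitals mark matches to 4 motifs searched for in each window, none overlapping another here. The core promoter element known as the TATA box was searched as TATAAA on the gene's strand only, and the other motifs on both strands. Sites of zinc finger factors of the GATA family were searched as AGATAA. The E-box bound by several helix-loop-helix factors was searched as CAGCTG. TCF/LEF factors, the nuclear partners of beta-catenin in Wnt signalling, were searched as CTTTGAN with A or T in the last place. The windows are chr9:7691840-7692089 (plus strand) for Mmp7, chr10:117292869-117293118 (minus strand) for Lyz1 and chr19:58759473-58759722 (plus strand) for Pnliprp2.
Mmp7: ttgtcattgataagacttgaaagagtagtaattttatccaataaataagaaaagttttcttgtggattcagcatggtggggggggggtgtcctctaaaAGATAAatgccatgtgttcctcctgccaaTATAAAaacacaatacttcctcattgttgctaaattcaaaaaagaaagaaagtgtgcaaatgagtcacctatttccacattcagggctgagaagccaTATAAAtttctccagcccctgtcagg
Lyz1: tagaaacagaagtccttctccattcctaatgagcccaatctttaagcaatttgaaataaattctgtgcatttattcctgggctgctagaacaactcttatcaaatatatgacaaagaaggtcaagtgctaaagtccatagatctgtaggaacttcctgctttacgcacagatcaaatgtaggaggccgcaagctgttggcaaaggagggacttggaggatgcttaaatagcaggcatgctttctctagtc
Pnliprp2: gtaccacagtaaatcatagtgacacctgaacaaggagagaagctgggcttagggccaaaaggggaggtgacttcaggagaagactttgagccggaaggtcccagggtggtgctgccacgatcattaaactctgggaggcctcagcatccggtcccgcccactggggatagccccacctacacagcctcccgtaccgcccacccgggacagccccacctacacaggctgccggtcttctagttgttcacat

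The Mmp7 window held the TATA box letters 26 and 123 bases before the start and those of GATA factors 152 bases before it. The Lyz1 and Pnliprp2 windows held none of the 4 motifs as spelled. Of 32851 mouse windows of this length, 7.59% held the TATA box letters on the gene's strand. On either strand, 9.99% held those of GATA factors, 13% those of the E-box and 7.48% a TCF/LEF match. Of the 7 genes with a window in the RefSeq table, Mmp7 and Nupr1, which had the E-box letters 211 bases before its start, were those with a match upstream of their first start. A second annotated start of Mmp7 has a window inside the gene, not shown, with a TCF/LEF match. A match is a run of letters and not a shown binding site, and its relation to the levels was not tested.

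Ang4, Habp2 and Nupr1 did not differ beyond their spread. Ang4 encodes a Paneth cell ribonuclease of the angiogenin family with antibacterial activity, on chromosome 14 (51763892 to 51773590, minus strand). Normalised counts were 2573, 1564, 2020 and 3295 for the CD1d-KO samples and 2211, 2431, 1671 and 2104 for the WT samples, with a log2 fold change of 0.17 ± 0.25 (SE, 95% interval -0.32 to 0.66; DESeq2, adjusted p = 0.851). CD1d-KO held both the highest and the lowest of the 8 values. Ang2, Ang5 and Ang6 had no count in any sample. Ang, the family member expressed outside Paneth cells as well, had a log2 fold change of 0.08 ± 0.09 (adjusted p = 0.768), and none of the 5 tested ribonuclease genes besides Ang4 passed (1 of them, the ribonuclease inhibitor gene Rnh1, at an unadjusted p of 0.02297).

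Habp2 encodes a plasma serine protease that binds hyaluronan, on chromosome 19 (56287912 to 56320820, plus strand). The CD1d-KO samples gave normalised counts of 301, 189, 269 and 399 and the WT samples 237, 268, 309 and 198 (log2 fold change 0.19 ± 0.21, 95% interval -0.21 to 0.60, DESeq2, adjusted p = 0.762). Habp2 shares 262 exon bases with Nrap. Of 16 other tested genes for plasma serine proteases and their inhibitors, 1 passed, the coagulation inhibitor Tfpi, which rose by 0.56 on the log2 scale (adjusted p = 0.00026).

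Nupr1 encodes a small nuclear protein induced by cellular stress, on chromosome 7 (126623246 to 126625470, minus strand). The normalised counts, 183, 171, 211 and 267 for CD1d-KO against 216, 253, 199.8 and 163 for WT, had means of 208 in both genotypes. The log2 fold change was 0.0007 ± 0.18 (SE, 95% interval -0.35 to 0.35; DESeq2, adjusted p = 0.999). None of the 25 other genes of the ATF4, CHOP and unfolded protein response passed the DESeq2 test, and their median log2 fold change was -0.09. At an unadjusted p under 0.05 there were 4, led by Phgdh (-0.29, adjusted p = 0.076) and Ddit3, which encodes CHOP (-0.37, adjusted p = 0.165).

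**Figure D2:**
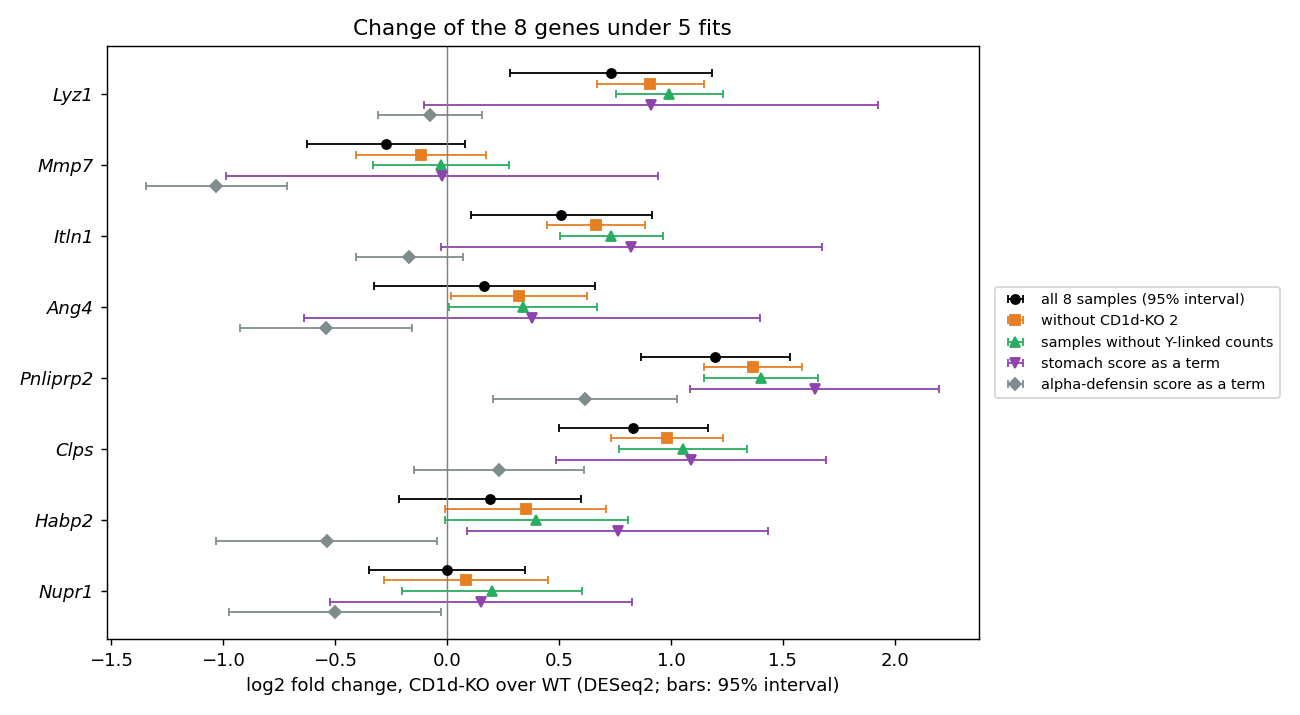
Log2 fold change of CD1d-KO over WT for each of the 8 genes with its 95% interval (DESeq2), in the fit on all 8 samples and under 4 alternatives. Pnliprp2 stayed above 0 throughout, from 1.20 on all samples to 0.62 with the alpha-defensin score as a term. That fit lowered all 8 genes and moved Mmp7 from -0.27 to -1.03.

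Per unit of exon length, the 8 genes spanned a wide range. In TPM (the share of reads per base of listed exon length, scaled to the same total in each sample), the CD1d-KO and WT means were 2082 and 1260 for Lyz1, 1009 and 710 for Itln1, and 282 and 252 for Ang4. Below them stood Clps (84.0 and 47.4), Mmp7 (80.4 and 97.5) and Pnliprp2 (57.3 and 25.04). Nupr1 (27.6 and 27.6) and Habp2 (7.80 and 6.83) were lowest. In WT, Mmp7 stood above Clps in every sample, from 74.2 to 118 against 42.3 to 53.7, whereas in CD1d-KO the ranges of both overlapped each other (54.4 to 104 and 57.9 to 101) and that of Pnliprp2. In WT, Pnliprp2 (23.3 to 27.1) and Nupr1 (21.7 to 33.3) did not differ beyond their spread, and in CD1d-KO Pnliprp2 (37.2 to 72.8) stood above Nupr1 (23.4 to 35.0) in every sample.

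The 8 genes shared a pattern among the CD1d-KO samples. CD1d-KO sample 2 was the lowest CD1d-KO sample for 8 of 8 genes and CD1d-KO sample 4 the highest for 8 of 8. WT sample 4 was the lowest WT sample for 6 of 8. After subtracting each genotype's mean from the log2 values, the correlations of the 28 gene pairs over the 8 samples were all positive, from 0.46 to 0.95 with a median of 0.81. This rested on CD1d-KO samples 2 and 4: over the other 6 samples the correlations ran from -0.92 to 0.98 with a median of 0.38, and 18 of 28 were positive. These points share libraries and the proportion of Paneth cells in each. The summed alpha-defensin counts moved the same way, with 39370, 23850, 39690 and 54010 in the CD1d-KO samples against 24360, 23810, 21950 and 18980, and correlated with the 8 genes at 0.80 (Nupr1) to 0.98 (Itln1). CD1d-KO sample 2 was also lowest for the summed goblet cell list (163800, against 279500 to 305900 in the other CD1d-KO samples). The same held for the enteroendocrine sum (29330, against 36190 to 53070) and the tuft sum (6858, against 7720 to 9283). Its enterocyte sum (437300) lay within the range of the other CD1d-KO samples (352300 to 500100). The part of these differences in the results was not tested.

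**Figure D3:**
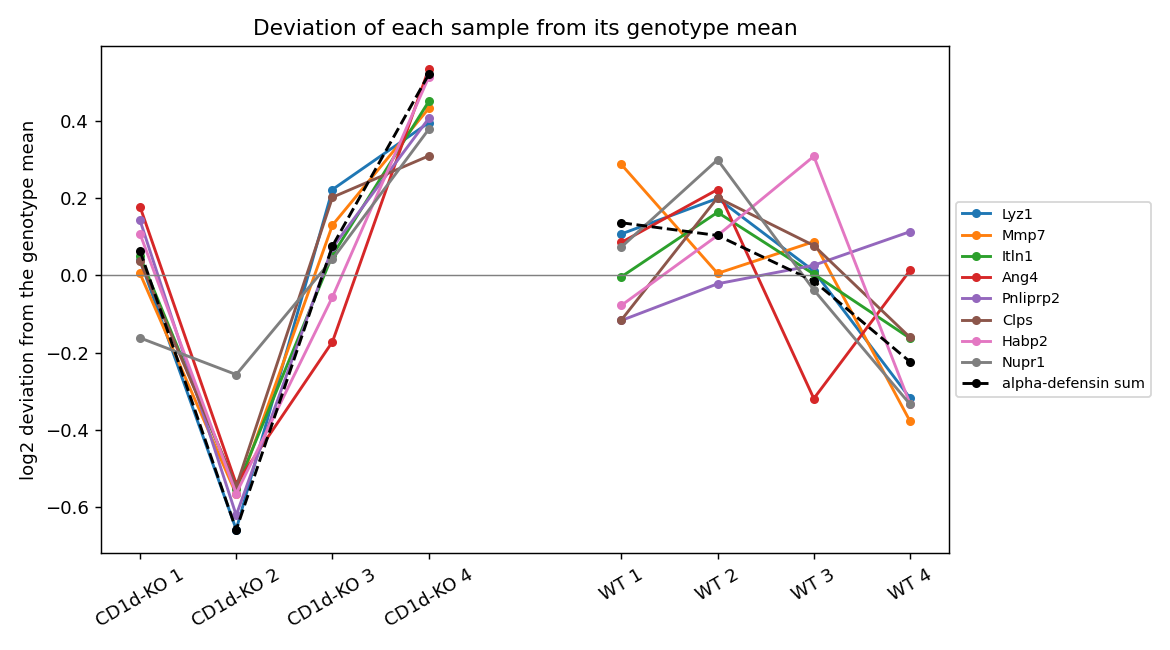
Deviation of each sample from the mean of its own genotype (log2 scale) for the 8 genes and for the summed alpha-defensins (dashed), with CD1d-KO samples 1 to 4 on the left and WT samples 1 to 4 on the right. All lines dip at CD1d-KO sample 2 and peak among CD1d-KO samples at sample 4. At WT sample 4 Pnliprp2 has its highest WT value, 510, while Ang4 lies near its WT mean and the other lines lie below theirs.

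Ratios between the genes compare them within each library. In CD1d-KO the coefficients of variation of the 28 ratios ran from 3.75% to 20.7%, against 20.4% to 31.6% for the 8 levels, and in WT from 4.64% to 26.1% against 6.63% to 18.7%. These ratios of normalised counts, chosen after the values were seen, compare samples and not genes, and carry no test. The ratio of Lyz1 to Mmp7 was 29.98, 27.5, 31.2 and 28.5 in the CD1d-KO samples and 13.02, 16.9, 13.99 and 15.4 in the WT samples. CD1d-KO sample 2, which held less of both genes than the other CD1d-KO samples, lay with them and outside the WT range. The coefficient of variation in CD1d-KO was 5.58% for this ratio, against 28.2% for the Lyz1 count.

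The ratio of Mmp7 to Pnliprp2 showed the widest gap, at 0.91, 1.04, 1.04 and 1.02 in CD1d-KO against 3.62, 2.79, 2.85 and 1.95 in WT. Mmp7 to Clps stood at 1.93 ± 0.12 in CD1d-KO and 4.20 ± 0.89 in WT, and Mmp7 to Itln1 at 0.0781 ± 0.00292 and 0.134 ± 0.0221 (SD, n = 4 each). Among 11720 genes averaging 50 or more normalised counts, the ratio to Mmp7 did not overlap between genotypes for 243, or 2.07%. Among the 7 other genes, 5 did not overlap: Lyz1, Itln1, Pnliprp2, Clps and Habp2.

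In all, 19 of the 28 pairs among the 8 genes had ratios that did not overlap, where 10.8% of the 68685060 pairs among all genes averaging 50 or more normalised counts did not. That share is not a like background, and nor is the one for ratios to Mmp7. The 8 genes varied together, so sample effects that they share cancel in their ratios more than in those of unrelated genes. The 28 pairs also share the same 8 genes, so no excess is read from the count. Itln1 to Ang4 overlapped, at 5.41 to 6.91 in CD1d-KO and 4.12 to 5.82 in WT, and so did Lyz1 to Clps (52.3 to 59.9 and 54.7 to 71.2).

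The summed alpha-defensins were higher in 3 of 4 CD1d-KO samples than in any WT sample, so a gene with a steady count has a lower ratio to them in CD1d-KO. Of 11708 other genes, 30.9% had a ratio to this sum that was lower in CD1d-KO with no overlap, and the ratios of the 8 genes are given beside that share as a description. Lyz1 (0.82 ± 0.06 in CD1d-KO and 0.86 ± 0.05 in WT), Clps (0.0145 and 0.0141) and Pnliprp2 (0.0279 and 0.0215) had ratios that overlapped between genotypes. Itln1 was lower relative to the alpha-defensins in CD1d-KO (0.358 ± 0.0191 against 0.438 ± 0.0281), as were Ang4 (0.0607 and 0.0950), Habp2 (0.00743 and 0.0114) and Nupr1 (0.00553 and 0.00929), with no overlap. Mmp7 had the lowest ratio relative to WT, at 0.0268, 0.0297, 0.0289 and 0.0262 in CD1d-KO against 0.0645, 0.0543, 0.0624 and 0.0522 in WT. Mmp7 RNA stood at 0.48 of its WT ratio to the alpha-defensin transcripts. Nupr1, with a log2 fold change of 0.0007, stood at 0.59 of its own WT ratio. The count of Mmp7 itself did not pass the test, and only RNA was counted here.

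**Figure D4:**
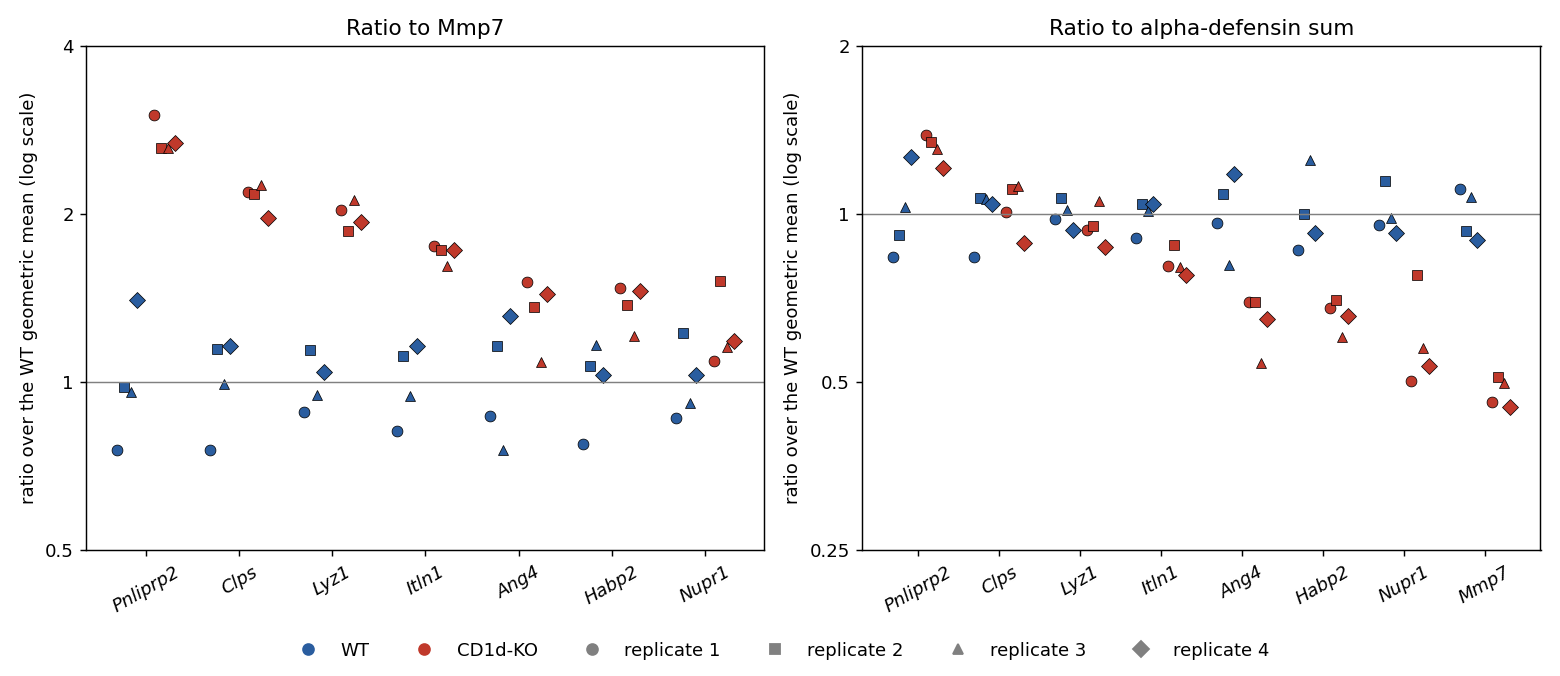
Ratio of each gene's normalised count to that of Mmp7 (left) and to the summed alpha-defensins (right) in each sample, divided by the WT geometric mean and drawn on a log axis, for WT (blue) and CD1d-KO (red). Left, the 4 CD1d-KO points of Pnliprp2, Clps, Lyz1, Itln1 and Habp2 lie above all WT points, and right, those of Itln1, Ang4, Habp2, Nupr1 and Mmp7 lie below them.

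Entered as a term beside genotype, the alpha-defensin score, an alternative added after the values were seen, also placed Pnliprp2 highest and Mmp7 lowest. With it, Mmp7 passed the test as lower in CD1d-KO (log2 fold change -1.03, DESeq2, adjusted p = 2.08e-07), and none of the other 7 genes passed. Pnliprp2 had a log2 fold change of 0.62 (adjusted p = 0.116), Clps 0.23, Lyz1 -0.08 and Itln1 -0.17. The score itself was higher in 3 of 4 CD1d-KO samples than in any WT sample, so part of a genotype difference shared with the alpha-defensins is removed by construction. The term also lowered the log2 fold change of every one of these genes, Ang4 from 0.17 to -0.54 and Nupr1 from 0.0007 to -0.50. A gene with a steady count that follows the score can thus come out as lower. The call of Mmp7 here is relative to the alpha-defensins and not a fall of its own count.

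The alpha-defensins themselves rose in CD1d-KO in part: 7 of 19 tested passed, all higher, with a median log2 fold change of 0.83. Defa40 (1.15, adjusted p = 0.00335), Defa26 (0.81, adjusted p = 0.00592) and Defa29 (1.07, adjusted p = 0.00713) had the smallest p-values in the DESeq2 fit, and near-identical copies make the split between single alpha-defensin genes uncertain. Among 15 regulators of Paneth cells, 1 passed: Nod2, the intracellular sensor of bacterial peptidoglycan fragments, fell by 1.26 on the log2 scale (adjusted p = 5.56e-05). Of 11 further granule and antimicrobial genes, 3 passed and all fell: Nod2 again, Reg3g, and Lcn2, which binds bacterial siderophores (log2 fold change -1.70, adjusted p = 0.0453). None of 8 niche signals passed in the DESeq2 fit, with 1, the EGF family ligand gene Ereg, at an unadjusted p of 0.0435, and Dll4 next at 0.07878.

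Other cell type lists gave the setting of the 8 genes. Of the goblet list 1 of 18 passed (Retnlb, -3.75, adjusted p = 7.62e-06), of the tuft list 1 of 18 (Matk, -0.51, adjusted p = 0.0285), and of the enterocyte list 2 of 25 (Mme, 0.62, adjusted p = 0.000563, and Cyp3a11, 0.98, adjusted p = 0.0218). No gene of the enteroendocrine (20), stem (20), proximal (15) or distal small intestine (14) lists passed the DESeq2 test, with 2, 3, 1 and 3 at an unadjusted p under 0.05. Of the stomach and Brunner gland list 8 of 15 passed, 7 of them lower in CD1d-KO, led by Psca (adjusted p = 0.00157), Vsig1 (0.00273) and Anxa10 (0.00617). Of the leukocyte list 6 of 22 passed, all lower, among them Jchain (adjusted p = 0.00552) and Itgam (0.0127).

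The genes with the most similar sample-to-sample pattern were taken by Pearson correlation of genotype-centred log2 values over 8 samples among 11720 genes. Only Defa29 and Defa30 among them were alpha-defensins. The most similar genes were Timm10b (0.993), Trappc2l (0.980) and Defa29 (0.967) for Lyz1, and Defa30 (0.987), Timm10b (0.964) and Ptger4 (0.962) for Itln1. For Mmp7 they were Il17re (0.983), Pnmal1 (0.973) and Trappc2l (0.970), and for Ang4 Zbtb21 (0.943), Traf5 (0.934) and Fmc1 (0.932). For Pnliprp2 they were Tmem14c (0.980), C3 (0.965) and Unc80 (0.960), and for Clps Prune2 (0.982), Hebp1 (0.974) and Mrpl41 (0.963). For Habp2 they were Vwa5b2 (0.992), Egf (0.984) and Ano7 (0.982), and for Nupr1 Slc36a1 (0.968), 2200002D01Rik (0.965) and Rnase1 (0.952). With 8 points and 11720 candidates, values of this size are a description only.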

How the data were processed

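Epithelial cells were sorted from proximal small intestinal crypts and poly(A) libraries made with the KAPA mRNA HyperPrep kit. The authors aligned reads to the mouse genome with HISAT2 and deposited raw counts of read pairs per gene, made, per the file header, with featureCounts 1.6.4 on exons of the mm10 RefSeq gene annotation, without strand and with primary alignments only. The methods name GRCm39 as the genome, so gene coordinates are given as the count table lists them. Gene lengths were used for TPM. All 8 samples' columns were used.

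Counts were tested with DESeq2 1.42.0 (R 4.3.3) with genotype as the only term, and genes were called at an adjusted p of 0.05. DESeq2 gave no adjusted p to genes under a mean normalised count of 2.41. edgeR 4.0.16 quasi-likelihood, other size factors, a low-count filter (10 counts in 4 samples), leave-one-out fits, the replicate number as a block, Y-linked counts and a stomach score were the alternatives. An alpha-defensin score was added after the values were seen. Replicates were separate mice, and pairs of the same genotype differed by more than sampling noise (chi-square per degree of freedom 9.74 to 37.2). Scripts were tested on simulated data. The lowest count of any of the 8 genes was 133, whose counting error is 8.67%. Scores and likeness used log2 of the normalised count plus 1.

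The 8 genes and the gene lists were chosen with earlier results of these data known. Named besides the 8 were Cd1d1, family relatives, the 3 most similar genes of each, and per list up to 3 passing genes with the smallest p, or up to 2 where none passed. One gene that this rule names is not reported here.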

Additional observations from a re-analysis of the deposited data

Results flagged for a closer look

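The ratio of Clps to the summed alpha-defensins had 1 WT sample apart from the other 3. It was 0.0118 in WT sample 1 and 0.0147 to 0.0151 in WT samples 2 to 4, so the gap took up 0.886 of the WT range, above Dixon's limit for 4 samples. The gap is in both terms, since WT sample 1 had the second lowest Clps count (288) and the highest alpha-defensin sum (24360) of the WT samples. It was 1 of 48 groups of 4 values examined, and chance alone passes this limit in about 1 group of 20.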

How the results depend on the processing

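Over 17 alternatives and 8 genes (136 values), 103 kept direction and side of the threshold, 13 were no longer past it, 5 newly passed it and 15 changed sign. The number of genes passing, 622, was 228 with edgeR (2 of the 8 genes), 372 among samples without Y-linked counts (4 of 8), 100 with the stomach score (1 of 8) and 212 with the alpha-defensin score (1 of 8, none shared with the 3), and 323 (without CD1d-KO sample 2) to 646 in leave-one-out fits, where 2 to 4 of the 8 passed. Without WT sample 1 it was 406 and without WT sample 2 385. The sign changes of Nupr1 were from a value near 0: -0.0019 (edgeR), -0.0004 (TMM factors), -0.0011 (low-count filter) and -0.14 to 0.11 in leave-one-out fits. Leave-one-out values ran from -0.0359 to 0.32 for Ang4 and from -0.0025 to 0.35 for Habp2, both lowest without CD1d-KO sample 4. With the alpha-defensin score, Lyz1 was -0.0751, Itln1 -0.17, Ang4 -0.54, Habp2 -0.54 and Nupr1 -0.50. The cause was not tested. The replicate block gave 569 genes and 2 of the 8, with Lyz1 at 0.70 (adjusted p = 0.415) and Nupr1 at -0.0042. Same-numbered samples correlated at 0.004 to 0.285 (11721 genes), and 3 of 8 samples correlated best with their own number, so the numbers were not taken as pairing. With 4 samples a group, differences inside the intervals given were not detectable.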
